A study of Mus musculus with 8 samples.

Results

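The Fc receptors of mouse myeloid cells and the adaptors and enzymes that carry their signal were followed in cells sorted from pancreatic tumours of mice given an antibody. All 9 genes chosen by symbol, namely Fcgr1, Fcgr3, Fcgr4, Fcgr2b, Fcgrt, Fcer1g, Tyrobp, Syk and Plcg2, were found among the 24537 genes of the count table, and all 9 passed the filter on low counts, which left 14711 genes for testing. The mice, of strain FVB/NJ, developed pancreatic tumours through Cre-dependent alleles shared by both arms and carried a Cre-activated luciferase reporter (Rosa26LSL-Luc) and Pdx1-Cre, which drives recombination in the pancreatic lineage. One arm received gemcitabine and a monoclonal antibody against leukaemia inhibitory factor (LIF), and the other gemcitabine and control IgG (n = 4 mice each, 1 library per mouse). Both arms therefore carried the chemotherapy, given at 50 mg/kg on days 1 and 4, and both received an injected antibody, at 25 mg/kg on days 1, 3 and 5. Treatment began at 42 to 43 days of age, tumours were taken whole on day 6, at about 48 days of age, and EpCAM+ cells were purified by flow cytometry without culture before polyA RNA was sequenced. The sources used here do not give the isotype of either antibody.

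Fc receptors bind the constant part of IgG. In the mouse, Fcgr1, Fcgr3 and Fcgr4 encode activating receptors whose ligand-binding chains need the common gamma chain, Fcer1g, for surface expression and for its immunoreceptor tyrosine-based activation motif (ITAM). Fcgr2b encodes the inhibitory receptor, which carries its own inhibitory motif. Src family kinases phosphorylate the ITAM, the kinase Syk docks on it, and phospholipase C gamma 2 (Plcg2) is among the enzymes activated below Syk. Tyrobp (DAP12) is a second ITAM adaptor that pairs with other myeloid receptors. Fcgrt encodes FcRn, which resembles a class I MHC heavy chain, pairs with beta-2 microglobulin and recycles IgG inside cells. These genes are typical of macrophages, monocytes, neutrophils and other leukocytes, and FcRn is also made by epithelial and endothelial cells.

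Several of the genes lie close together: Fcgr2b, Fcgr4, Fcgr3 and Fcer1g occupy 274 kb of chromosome 1 on mm10, chr1:170960559-171234349, and the 3 Fc gamma receptor genes there fall within 98.8 kb. Fcgr1 is on chromosome 3, Tyrobp and Fcgrt are on chromosome 7, Syk is on chromosome 13 and Plcg2 is on chromosome 8. All 9 are annotated as protein-coding, and no exon base of the matching GENCODE M21 transcripts overlapped another annotated gene. These can differ from the counted transcripts: that of Fcgr2b held 3495 stretches of 50 bases, while 1536 bases were counted. The GENCODE transcripts of Fcgr2b and Fcgr3 share 166 stretches of 50 bases, which is 12.8% of the 1298 such stretches in Fcgr3. Part of their reads could thus be assigned to either. No other pair among the 9 genes shared any stretch of 50 bases.

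The upstream sequences of the 4 Fc gamma receptor genes, shown next, are a description, and no link between them and the counts was tested. Each is the 250 bases before the annotated gene start, 5′ to 3′ on the gene's strand, from RefSeq on GRCm38.p6 (the mm10 assembly). Capitals mark matches on either strand to 3 motifs, which were picked after the counts were seen: TTCNNNGAA, the spacing of a STAT site of the gamma-activated type; GAGGAA, the core of an ETS site of the PU.1 type; and GAAANNGAA, the spacing found in interferon-stimulated response elements. None of the printed matches overlap each other.
Fcgr1, chr3:96293970-96294219, minus strand: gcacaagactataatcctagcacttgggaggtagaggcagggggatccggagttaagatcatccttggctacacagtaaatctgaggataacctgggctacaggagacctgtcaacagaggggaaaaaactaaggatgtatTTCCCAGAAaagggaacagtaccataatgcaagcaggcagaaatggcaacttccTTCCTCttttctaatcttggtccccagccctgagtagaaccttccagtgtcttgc
Fcgr3, chr1:171059404-171059653, minus strand: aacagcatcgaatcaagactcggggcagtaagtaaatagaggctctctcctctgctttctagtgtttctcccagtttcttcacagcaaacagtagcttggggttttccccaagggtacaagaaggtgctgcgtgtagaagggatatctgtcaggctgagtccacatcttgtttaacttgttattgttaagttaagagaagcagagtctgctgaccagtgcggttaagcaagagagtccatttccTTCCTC
Fcgr4, chr1:171018676-171018925, plus strand: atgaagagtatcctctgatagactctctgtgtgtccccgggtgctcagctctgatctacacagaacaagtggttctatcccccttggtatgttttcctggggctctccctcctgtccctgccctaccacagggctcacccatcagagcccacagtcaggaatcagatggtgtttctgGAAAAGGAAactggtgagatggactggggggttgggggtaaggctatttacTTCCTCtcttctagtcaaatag
Fcgr2b, chr1:170976072-170976321, minus strand: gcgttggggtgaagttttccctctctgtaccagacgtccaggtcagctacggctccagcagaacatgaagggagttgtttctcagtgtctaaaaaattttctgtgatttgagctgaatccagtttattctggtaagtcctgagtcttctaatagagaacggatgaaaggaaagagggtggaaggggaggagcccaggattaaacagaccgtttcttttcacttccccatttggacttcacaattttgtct
Fcgr1 held a TTCNNNGAA match that starts 109 bases before the gene start and a GAGGAA match, on the opposite strand, at 55 bases before it. Fcgr3 held a GAGGAA match 6 bases before the start, and Fcgr4 held a GAGGAA match at 22 and a GAAANNGAA match at 73 bases before it. The Fcgr2b sequence held none of the 3. Among 32851 promoter windows of the same RefSeq table, each 300 bases long and reaching 50 bases past the start, 8.30% held TTCNNNGAA, 28.3% held GAGGAA and 8.56% held GAAANNGAA. Windows were found for 8 of the 9 genes, 10 windows in all. The window of Fcgr1 was the only 1 of the 10 with a TTCNNNGAA match, and Fcgr4 the only one with GAAANNGAA. A match is a description of letters, not of a bound site.

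A second sequence concerns Fcgr2b. Its transcripts come in a form with and a form without an exon in the cytoplasmic tail, and in the mouse the form with it, called b1, is known from B cells, while macrophages are known for the shorter b2 form. The count table uses a transcript of 1536 bases and the FPKM table one of 1396 bases, and the annotation places the difference in exon 6 of 8, at chr1:170963325-170963465, minus strand, mm10. This exon has 141 bases, or 47 codons. It is shown in capitals, with 20 bases of the neighbouring exon on either side in lower case, from the GENCODE M21 transcript.
Fcgr2b exon 6: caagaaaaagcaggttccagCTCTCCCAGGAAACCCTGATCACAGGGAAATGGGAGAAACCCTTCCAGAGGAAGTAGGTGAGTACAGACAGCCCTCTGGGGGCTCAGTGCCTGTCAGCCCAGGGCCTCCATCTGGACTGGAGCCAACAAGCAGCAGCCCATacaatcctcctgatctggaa

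Between 15135457 and 18972281 reads per library were counted in genes. Of 14711 genes tested with edgeR's quasi-likelihood test, 2303 were called higher with anti-LIF and 2428 lower at a Benjamini-Hochberg adjusted p under 0.05, against 1430 higher and 3567 lower when libraries were scaled by their totals alone. These are 15.7% and 16.5% of the genes, and for 17.6% the lowest anti-LIF library was above the highest IgG library. Epcam, the gene of the sorting antigen, averaged 305 ± 74.8 CPM (counts scaled to library size) with anti-LIF and 575 ± 76.8 CPM with IgG (SD, n = 4 each; edgeR adjusted p = 0.0102). Markers of macrophages and monocytes, cells that an EpCAM sort is meant to leave out, were abundant in every library. The 16 such markers summed to 26032 to 51988 CPM with anti-LIF and 11916 to 16096 CPM with IgG, 2.40 times as much on average (exact two-sided permutation p = 0.0286, the smallest that 4 against 4 allows, and 0.0686 adjusted over 12 cell type lists). Of these 16, 11 were called higher and 0 lower, and none was at 0. Fewer cells of a type and less RNA per cell cannot be told apart in such bulk samples, and neither can more cells and more RNA per cell.

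Of the 9 genes, 8 were higher and 0 lower with anti-LIF, beside 15.7% and 16.5% of all genes. In the same 8 the arms did not overlap, as in 17.6% of all genes with anti-LIF higher. But relative to the macrophage marker sum 1 gene was higher and 3 were lower, beside 1.08% of all genes higher and 82.9% lower on that scale. Together the 9 genes took 0.543% ± 0.118 of all counts with anti-LIF and 0.298% ± 0.0351 with IgG (SD, n = 4 each). Their median log2 fold change was 0.76, beside -0.01 over all 14711 genes. The macrophage marker sum moved in the same direction, by 2.40 times. The only member whose arms overlapped was Fcgr4.

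**Figure D1:**
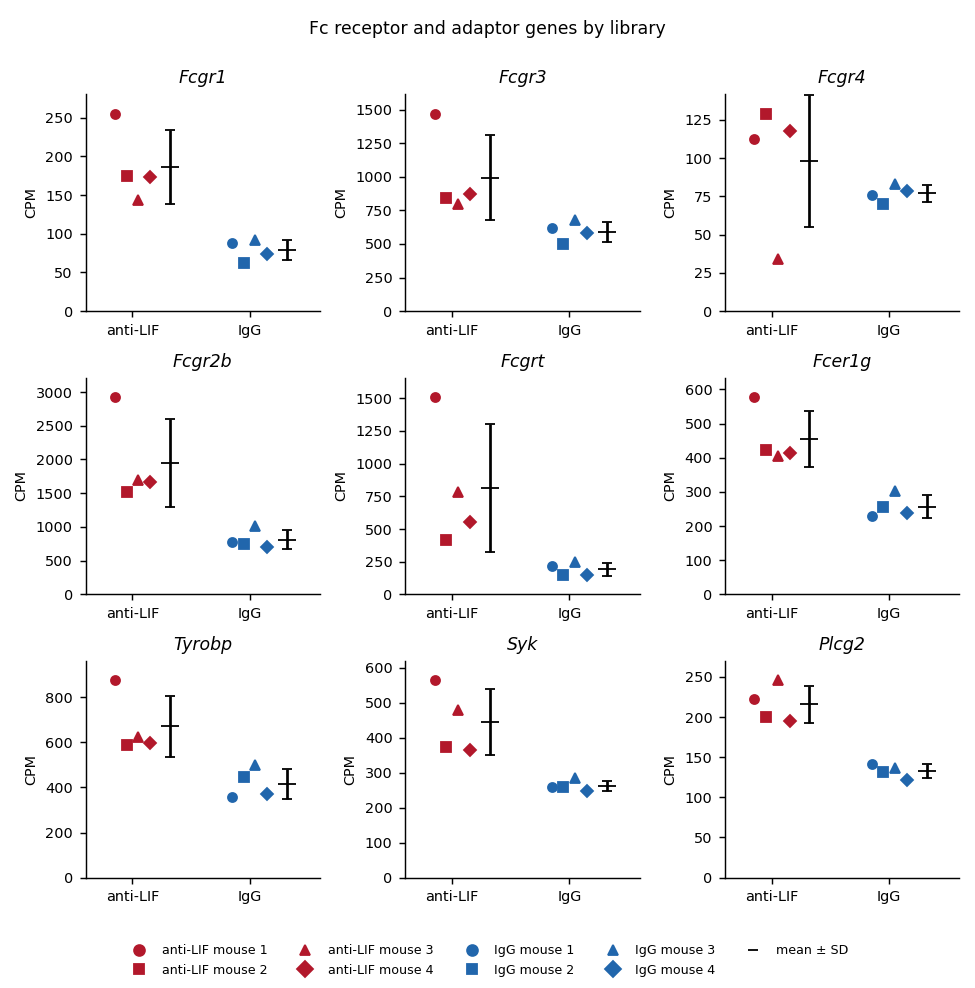
CPM with TMM scaling (trimmed mean of M values) in each of the 8 libraries for the 9 genes, with anti-LIF on the left and IgG on the right; each symbol is 1 mouse and the bar is mean ± SD. The arms are apart in 8 panels, with anti-LIF higher, as in 17.6% of all genes. Fcgr4 overlaps, with anti-LIF mouse 3 at 34.0 CPM. Relative to the macrophage marker sum, 1 gene was higher and 3 were lower, where 82.9% of all genes were lower.

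Among the activating receptors, Fcgr1, the high-affinity IgG receptor of monocytes and macrophages, had the largest fold change of the 3. It had 255, 175, 143 and 174 CPM with anti-LIF (mice 1 to 4 of the arm, an order kept below), against 87.6, 62.4, 91.5 and 74.4 CPM with IgG (mice 1 to 4, likewise). The lowest anti-LIF library was thus above the highest IgG library, and anti-LIF mouse 1 was the highest of all. This was a log2 fold change of 1.24 ± 0.19 (SE; 2.36-fold; edgeR adjusted p = 0.00440).

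Fcgr3, the low-affinity activating receptor, had 1468, 840, 795 and 873 CPM with anti-LIF and 618, 499, 676 and 578 CPM with IgG. The arms did not overlap, and mouse 1 again stood well above the other anti-LIF mice, which spanned 795 to 873 CPM. The log2 fold change was 0.75 ± 0.21 (SE; 1.68-fold; edgeR adjusted p = 0.0264). This call was lost when any of 3 IgG libraries was left out, with an adjusted p of 0.0503 without IgG mouse 1, 0.0755 without IgG mouse 2 and 0.0622 without IgG mouse 4.

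Fcgr4, the activating receptor for IgG2a and IgG2b, behaved otherwise. It had 112, 129, 34.0 and 118 CPM with anti-LIF, against 75.9, 69.8, 83.3 and 78.6 CPM with IgG. In the anti-LIF arm, 3 mice exceeded every IgG mouse, and mouse 3 was below every one, the lowest of the 8. The log2 fold change was 0.35 ± 0.34 (SE) and did not pass (edgeR adjusted p = 0.453). Without anti-LIF mouse 3 it was 0.64, with an adjusted p of 0.0111. The same mouse was also the lowest of its arm for Fcgr1, Fcgr3 and Fcer1g, though above every IgG mouse, and lay within the range of the other anti-LIF mice for Fcgr2b, Fcgrt, Tyrobp and Syk.

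Fcgr2b, the inhibitory receptor, gave the most reads of the 9 genes. It had 2923, 1512, 1692 and 1659 CPM with anti-LIF, and 781, 752, 1011 and 697 CPM with IgG. Mouse 1 of the anti-LIF arm was far above the other 3 anti-LIF mice, whose values lay within 1512 to 1692 CPM, and these in turn exceeded every IgG library. This gave a log2 fold change of 1.26 ± 0.23 (SE; 2.40-fold; edgeR adjusted p = 0.00638), close in size to that of Fcgr1.

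Reads in exon 6 of Fcgr2b rose with the gene, while the exon's share did not differ beyond the spread between mice. The exon held 815, 529, 689 and 560 reads with anti-LIF, against 240, 316, 372 and 253 reads with IgG. These are whole reads, recovered as the difference between the deposited counts of the 1536-base transcript and the counts behind the deposited FPKM of the 1396-base one, and they came out within 0.0131 of whole numbers. Per base, the density in the exon was 18.1%, 23.8%, 25.7% and 23.1% of that in the shared exons with anti-LIF, against 17.9%, 23.6%, 18.9% and 20.0% with IgG. The means were 22.7% ± 3.27 with anti-LIF and 20.1% ± 2.46 with IgG (SD, n = 4 each), a difference of 2.61 percentage points (exact two-sided permutation p = 0.286). The arms overlapped, and the lowest share within each arm was near 18%. The transcript lengths in the files differ by 140 bases, 1 fewer than the annotated exon, and 140 was used for the density. Position along the transcript can also set read density, so the percentage is not a share of b1 transcripts.

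**Figure D2:**
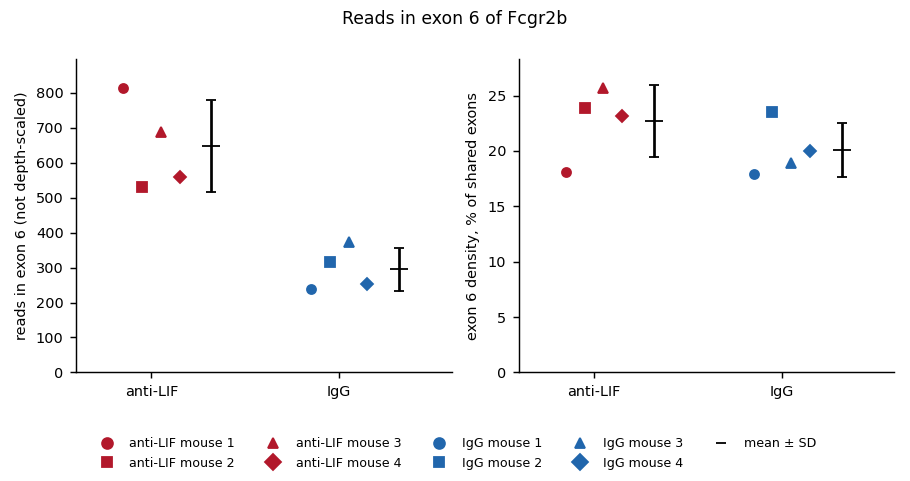
Left, whole reads in Fcgr2b exon 6, not scaled for depth; right, read density of the exon as a percentage of that of the shared exons, per library, with anti-LIF left of IgG and mean ± SD bars. Reads run from 529 to 815 with anti-LIF and from 240 to 372 with IgG, while the densities of the arms overlap (22.7% and 20.1% on average).

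Fcgrt, encoding FcRn, had the largest fold change of the 9 genes with TMM scaling. It had 1508, 414, 781 and 553 CPM with anti-LIF, and 216, 151, 249 and 150 CPM with IgG. The anti-LIF libraries spread widely, with anti-LIF mouse 1 highest and anti-LIF mouse 2 lowest, yet all exceeded the IgG libraries. It had a log2 fold change of 2.09 ± 0.39 (SE; 4.25-fold; edgeR adjusted p = 0.00685), and 1.61 without anti-LIF mouse 1. B2m, which encodes the light chain shared by FcRn and class I MHC molecules, averaged 1489 ± 414 CPM with anti-LIF and 609 ± 94.1 CPM with IgG (SD, n = 4 each; log2 fold change 1.29; edgeR adjusted p = 0.00471).

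Of the adaptors, Fcer1g, the gamma chain, had 577, 422, 404 and 413 CPM with anti-LIF, against 230, 255, 303 and 238 CPM with IgG. Mouse 1 of the anti-LIF arm was again apart from the other 3 anti-LIF mice, which differed little among themselves. Its log2 fold change was 0.82 ± 0.15 (SE; 1.77-fold; edgeR adjusted p = 0.00569).

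Tyrobp, the other ITAM adaptor, had 874, 590, 622 and 597 CPM with anti-LIF and 356, 444, 498 and 369 CPM with IgG. As for Fcer1g, anti-LIF mouse 1 was the highest of all and mouse 3 the highest of the IgG arm. The log2 fold change was 0.69 ± 0.17 (SE; 1.61-fold; edgeR adjusted p = 0.0162).

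Below the receptors, Syk had 564, 375, 478 and 366 CPM with anti-LIF, against 261, 258, 284 and 248 CPM with IgG. The IgG libraries lay within a narrow band, and the anti-LIF libraries all exceeded it. The log2 fold change was 0.76 ± 0.15 (SE; 1.70-fold; edgeR adjusted p = 0.00724).

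Plcg2 had 222, 200, 246 and 195 CPM with anti-LIF, and 142, 132, 136 and 121 CPM with IgG. Here anti-LIF mouse 3, not anti-LIF mouse 1, was highest, and the spread within each arm was small. Its log2 fold change of 0.70 ± 0.10 (SE; 1.63-fold) had the lowest adjusted p of the 9 genes (edgeR adjusted p = 0.00362).

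Compared per length, in the deposited FPKM (reads scaled by transcript length and library total), Fcgr2b and Tyrobp led in both arms. Fcgr2b averaged 1022 ± 265 FPKM with anti-LIF and 472 ± 69.4 FPKM with IgG, and Tyrobp averaged 904 ± 116 FPKM with anti-LIF and 618 ± 76.4 FPKM with IgG (SD, n = 4 each). In these FPKM, Fcgr2b exceeded Tyrobp in 4 of 4 anti-LIF libraries, by little in anti-LIF mouse 2 (836 against 834 FPKM). Tyrobp exceeded Fcgr2b in 4 of 4 IgG libraries, and the ranges of the pair overlapped within each arm. The order rests on the 1396-base Fcgr2b transcript of the FPKM. In reads per base with the 1536-base transcript of the counts, Tyrobp was instead above Fcgr2b in anti-LIF mice 2 and 3. There Tyrobp over Fcer1g was 1.63 and 1.79, and Fcer1g over Fcgr2b was 0.658 and 0.563. Fcgr2b stayed above Tyrobp in anti-LIF mice 1 and 4, and Tyrobp above Fcgr2b in every IgG library. Fcgr3 at 554 FPKM with anti-LIF and 366 FPKM with IgG, and Fcer1g at 526 FPKM with anti-LIF and 327 FPKM with IgG, did not separate from each other in either arm. Fcgrt followed at 349 FPKM with anti-LIF and 92.0 FPKM with IgG. Syk, Fcgr4, Fcgr1 and Plcg2 formed the low end. In this group Syk averaged 66.2 FPKM with anti-LIF and 43.0 FPKM with IgG, and Fcgr4 averaged 59.8 FPKM with anti-LIF and 51.5 FPKM with IgG. Fcgr1 averaged 54.4 FPKM with anti-LIF and 25.5 FPKM with IgG, and Plcg2 averaged 38.3 FPKM with anti-LIF and 25.8 FPKM with IgG. With anti-LIF each neighbouring pair among these 4 overlapped, whereas with IgG Fcgr4 lay above Syk and Syk above Plcg2 without overlap, and Plcg2 and Fcgr1 overlapped.

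Set against the macrophage and monocyte markers of the same library, the 9 genes fell into 3 groups. Fcgr1 and Fcgr2b kept pace with the marker sum, Fcgrt exceeded it, and the estimates of the other 6 were below it, 3 of these past the threshold. The 16 markers did not move as one, and with TMM scaling their log2 fold changes ran from 0.12 to 2.47. Fcgr2b had 56.2, 58.1, 63.5 and 56.1 CPM per 1000 CPM of marker sum with anti-LIF, against 53.4, 63.1, 62.8 and 52.7 with IgG. Fcgr1 had 4.90, 6.72, 5.38 and 5.88 with anti-LIF, against 5.99, 5.23, 5.68 and 5.63 with IgG. In this scaling the arms overlapped for both receptors and the log2 fold changes were 0.01 ± 0.21 for Fcgr2b and 0.02 ± 0.22 for Fcgr1 (SE; edgeR adjusted p = 0.955 and 0.927).

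Fcgr3 per 1000 CPM of marker sum was 28.2, 32.3, 29.9 and 29.5 with anti-LIF and 42.2, 41.9, 42.0 and 43.7 with IgG. Both arms were tight, and they lay well apart, with anti-LIF below IgG (log2 fold change -0.50 ± 0.21, SE; edgeR adjusted p = 0.0315). Fcgr4 was likewise below IgG, at 3.09 ± 1.67 with anti-LIF and 5.54 ± 0.419 with IgG per 1000 CPM of marker sum (log2 fold change -0.84; edgeR adjusted p = 0.0265). Tyrobp was the remaining one called lower, at 20.7 ± 2.95 with anti-LIF and 30.1 ± 5.49 with IgG (log2 fold change -0.54; edgeR adjusted p = 0.0373). Fcer1g, Syk and Plcg2 had log2 fold changes of -0.39, -0.45 and -0.47 that did not pass (edgeR adjusted p = 0.112, 0.0781 and 0.0942).

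Fcgrt per 1000 CPM of marker sum was 29.0, 15.9, 29.3 and 18.7 with anti-LIF, against 14.8, 12.6, 15.5 and 11.3 with IgG. The arms did not overlap on this scale either (log2 fold change 0.78 ± 0.25, SE; edgeR adjusted p = 0.00974). The median log2 fold change of all tested genes in this scaling was -1.18, and the values above are to be read against that median. Without the 4 most abundant markers, which are Lyz2, Mrc1, C1qa and Csf1r, Fcgrt was the only one of the 9 called higher and 0 were called lower. The calls of Fcgr3, Fcgr4 and Tyrobp on this scale thus depended on which markers stood for the macrophages. On the reduced marker set Fcgr1 and Fcgr2b had log2 fold changes of 0.25 and 0.26, neither called. Their place relative to the markers therefore depended on that choice too.

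**Figure D3:**
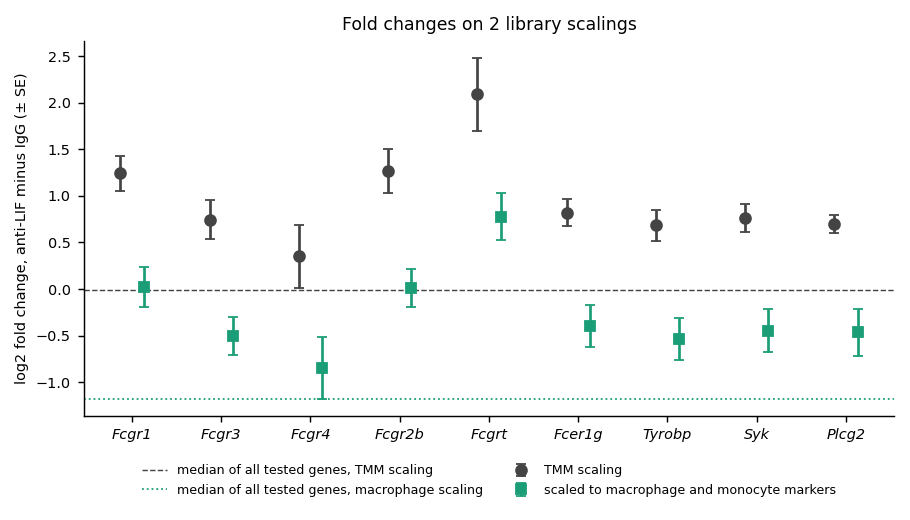
Log2 fold change (anti-LIF minus IgG) ± SE of the 9 genes with TMM scaling (circles) and scaled to the macrophage and monocyte marker sum (squares), with the median of all tested genes as a line for each scaling. With TMM all 9 estimates are above 0; scaled to the markers, Fcgrt stays above 0, Fcgr1 and Fcgr2b sit close to 0 and 6 genes lie below it, all above the median of -1.18.

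Ratios between genes within a library need no library scaling, and 8 were computed, 7 between pairs of the 9 genes and 1 of Fcgrt to B2m, as reads per base of one gene over the other. The activating receptor Fcgr3 over the inhibitory Fcgr2b was 0.573, 0.634, 0.536 and 0.600 with anti-LIF, against 0.903, 0.757, 0.763 and 0.947 with IgG. Every anti-LIF ratio was below every IgG ratio (0.586 ± 0.0415 with anti-LIF and 0.843 ± 0.0967 with IgG, SD, n = 4 each). The exact permutation test gave p = 0.0286 (two-sided), and 0.0762 adjusted over the 8 ratios. Fcer1g over Fcgr2b was also lower with anti-LIF in all libraries, at 0.569 ± 0.0796 with anti-LIF and 0.753 ± 0.0590 with IgG, with the same p and adjusted p. Fcgr1 over Fcgr2b averaged 0.0584 in both arms, ± 0.00876 with anti-LIF and ± 0.00812 with IgG (exact two-sided permutation p = 1).

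Fcgr4 over Fcgr2b was 0.0474, 0.105, 0.0249 and 0.0877 with anti-LIF, against 0.120, 0.115, 0.102 and 0.139 with IgG. The arms overlapped through mouse 2 of the anti-LIF arm (exact two-sided permutation p = 0.0571, adjusted 0.0914). Tyrobp over Fcer1g was 1.72 ± 0.0757 with anti-LIF and 1.89 ± 0.107 with IgG (exact p = 0.0286, adjusted 0.0762), a small shift without overlap. Syk over Fcer1g (0.126 with anti-LIF and 0.132 with IgG; exact p = 0.486) and Plcg2 over Syk (0.586 with anti-LIF and 0.600 with IgG; exact p = 0.857) overlapped between the arms. Fcgrt over B2m was 0.254 ± 0.0787 with anti-LIF and 0.154 ± 0.0293 with IgG (exact p = 0.0571, adjusted 0.0914). None of the 8 ratios passed after adjustment, and with 70 assignments of the labels 0.0286 is the smallest p that can be reached.

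**Figure D4:**
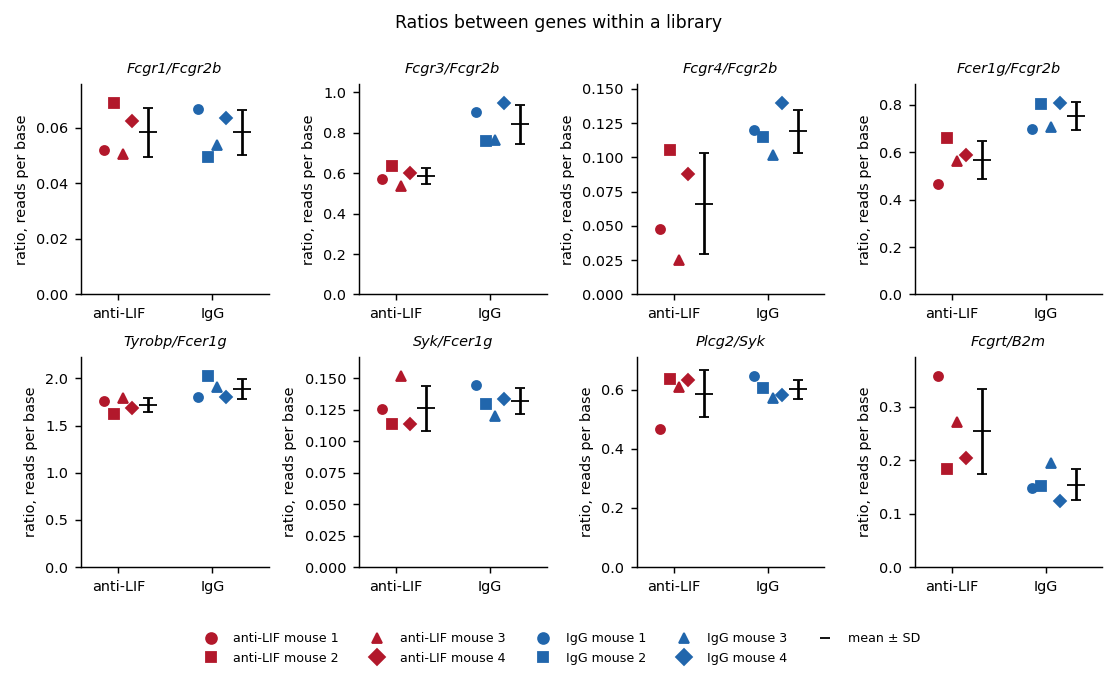
The 8 within-library ratios, in reads per base, with anti-LIF left of IgG; symbols are mice and bars are mean ± SD. Fcgr3/Fcgr2b, Fcer1g/Fcgr2b and Tyrobp/Fcer1g do not overlap between the arms and are lower with anti-LIF, whereas Fcgr1/Fcgr2b averages 0.0584 in both.

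Other cell types known to express these genes were checked through their markers. Neutrophil markers summed to 212 to 463 CPM with anti-LIF and 97.9 to 321 CPM with IgG (exact two-sided permutation p = 0.2). Natural killer cell markers were at 4.98 to 11.9 CPM with anti-LIF and 5.67 to 8.83 CPM with IgG, with Ncr1 at 0 counts in all 8 libraries. Mast cell and basophil markers were at 11.0 to 33.0 CPM with anti-LIF and 13.5 to 33.1 CPM with IgG, and Fcer1a, the IgE receptor chain that defines them, had 2 counts in all with anti-LIF and 0 with IgG. B and plasma cell markers ran from 215 to 320 CPM with anti-LIF and from 74.7 to 1325 CPM with IgG (exact p = 0.743). Dendritic cell markers (45.3 to 94.4 CPM with anti-LIF, 12.8 to 40.5 CPM with IgG) and T cell markers (31.8 to 35.3 CPM with anti-LIF, 6.75 to 17.1 CPM with IgG) did not overlap between the arms, each with an exact p of 0.0286 and 0.0686 adjusted over the 12 lists. The separation of the dendritic cell markers rested on Cd209a, and without it the other 7 summed to 25.1 to 31.8 CPM with anti-LIF and 10.7 to 29.9 CPM with IgG, which overlapped (exact p = 0.114; a check added after seeing the data). Most of the T cell sum was Cd4, at 18.5 to 25.6 CPM with anti-LIF and 3.68 to 13.1 CPM with IgG. Platelet (56.5 to 141 CPM with anti-LIF, 23.7 to 99.0 CPM with IgG), fibroblast (290 to 974 CPM with anti-LIF, 226.9 to 847 CPM with IgG) and endothelial markers (20.9 to 46.6 CPM with anti-LIF, 29.9 to 40.8 CPM with IgG) overlapped. Each of these sums was far below that of the macrophage and monocyte markers. Epithelial markers were lower with anti-LIF, at 2223 to 3725 CPM with anti-LIF and 5686 to 6758 CPM with IgG. Acinar markers were higher, at 3162 to 17802 CPM with anti-LIF and 357 to 2037 CPM with IgG. For both, the exact p was 0.0286, and 0.0686 adjusted over the 12 lists. The part of any of these cell types in the results on the 9 genes was not tested.

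The genes around the pathway were taken from 9 lists that hold 126 genes, of which 115 were tested. Of these, 64 were called higher and 10 lower with anti-LIF (median log2 fold change 0.57), but scaled to the macrophage markers 4 were higher and 58 lower, and scaled to epithelial markers 103 were higher and 2 lower. As shares, 55.7% of the listed genes were higher and 8.70% lower with TMM scaling, beside 15.7% and 16.5% of all genes. Scaled to the macrophage markers 50.4% of the listed genes were lower, beside 82.9% of all genes, and scaled to epithelial markers 89.6% were higher, beside 77.6% of all genes. The lists below are given in the order of the pathway, each with the share of its tested genes to be read against these shares of all genes, and the numbers for named genes are with TMM scaling.

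Of 13 further Fc receptors and Fc receptor-like genes, 9 were tested, and 5 rose (55.6%, beside 15.7% of all genes) and 0 fell, against 2 higher and 1 lower scaled to the macrophage markers (11.1% lower, beside 82.9%). Fcrls, a scavenger receptor-like gene of macrophages and microglia, had 334, 124, 348 and 117 CPM with anti-LIF and 11.7, 3.02, 7.70 and 5.14 CPM with IgG (log2 fold change 5.07 ± 0.56, SE; edgeR adjusted p = 0.00262). The lowest anti-LIF library was at 117 CPM and the highest IgG library at 11.7 CPM. Fcer2a, the low-affinity IgE receptor CD23, averaged 5.83 ± 0.873 CPM with anti-LIF and 0.892 ± 0.611 CPM with IgG (log2 fold change 2.71). Fcrl1 and Fcrla, both known from B cells, had log2 fold changes of 1.51 and 1.00, and Trim21, an antibody receptor of the cytosol, 0.89. Fcmr, the IgM receptor (1.17), Pigr, the polymeric immunoglobulin receptor (0.79), Fcamr (0.89) and Fcrlb (-0.09) did not pass. Fcer1a, Ms4a2, Fcrl5 and Fcrl6 had too few counts to be tested.

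Of the 8 Src family kinases, which phosphorylate ITAMs, 3 rose (37.5%, beside 15.7% of all genes) and 1 fell, against 0 higher and 2 lower scaled to the macrophage markers (25.0% lower, beside 82.9%). Lyn, which acts on both activating and inhibitory receptors, averaged 320 ± 31.5 CPM with anti-LIF and 197 ± 18.5 CPM with IgG (SD, n = 4 each; log2 fold change 0.70; edgeR adjusted p = 0.00418). Lck, the T cell member, was called at 3.48 CPM with anti-LIF and 1.39 CPM with IgG (1.33). Yes1, a broadly expressed member, was the one that fell (-0.93).

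Of 16 tested adaptors and exchange factors that act below Syk, 10 rose (62.5%, beside 15.7% of all genes) and 0 fell, against 1 higher and 11 lower scaled to the macrophage markers (68.8% lower, beside 82.9%). Fyb, an adaptor that binds SLP-76, averaged 225 ± 57.7 CPM with anti-LIF and 67.4 ± 9.62 CPM with IgG (log2 fold change 1.74 ± 0.18, SE; edgeR adjusted p = 0.00235). The adaptor Blnk (1.37), the exchange factor Vav3 (1.05) and Lcp2, which encodes SLP-76 (0.85), followed by p.

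Of 18 Tec kinases, PI3K subunits and calcium signalling genes, 13 rose (72.2%, beside 15.7% of all genes) and 3 fell, against 0 higher and 10 lower scaled to the macrophage markers (55.6% lower, beside 82.9%). The kinase Prkcd averaged 711 ± 59.7 CPM with anti-LIF and 422 ± 21.1 CPM with IgG (log2 fold change 0.75; edgeR adjusted p = 0.00317). Pik3cd, the leukocyte PI3K delta subunit (0.92), Prkcb (0.99) and the Tec family kinase Btk (0.90) came next. The 3 that fell were named after their values were seen, and they are the inositol trisphosphate receptor Itpr3 (-0.90), Bmx (-1.21) and Plcg1 (-0.75). Plcg1, the broadly expressed relative of Plcg2, thus moved against it, at 43.8 ± 10.1 CPM with anti-LIF and 73.7 ± 12.2 CPM with IgG (edgeR adjusted p = 0.0148).

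The list of inhibitory receptors and phosphatases had 21 tested genes. Of these, 12 rose (57.1%, beside 15.7% of all genes) and 2 fell, against 1 higher and 11 lower scaled to the macrophage markers (52.4% lower, beside 82.9%). Cd72 averaged 38.5 ± 8.77 CPM with anti-LIF and 9.85 ± 2.48 CPM with IgG (log2 fold change 1.97; edgeR adjusted p = 0.00284). Csk, the kinase that restrains Src family members (0.85), Ptprc, the leukocyte phosphatase CD45 (0.86), and Ptpn6, the phosphatase SHP-1 (0.92), came next. Inpp5d, which encodes SHIP-1, the phosphatase that Fcgr2b recruits, was named after its values were seen and had 369 ± 55.0 CPM with anti-LIF and 249 ± 32.2 CPM with IgG (0.57; edgeR adjusted p = 0.0144). This rise was smaller than that of Fcgr2b, a difference that was not tested.

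Among 16 tested receptors that pair with Tyrobp or Fcer1g, 8 rose (50.0%, beside 15.7% of all genes) and 1 fell, against 0 higher and 8 lower scaled to the macrophage markers (50.0% lower, beside 82.9%). With TMM scaling and 1 mouse left out at a time, only 4 to 7 of these receptors were called higher, and 1 lower. Clec4n (Dectin-2) averaged 640 ± 107 CPM with anti-LIF and 264 ± 35.5 CPM with IgG (log2 fold change 1.28; edgeR adjusted p = 0.00284). The activating receptors Pilrb1 (1.40) and Cd300lb (1.57) rose, and Siglec15, a Tyrobp partner known from osteoclasts, fell to 0.508 CPM with anti-LIF, against 2.93 CPM with IgG (-2.52). Of the 8 tested genes for other ITAM and related adaptors, Cd3g rose (2.01) and Clec1b, a receptor of platelets, fell (-2.43). Scaled to the macrophage markers, 0 were higher and 4 lower (50.0% lower, beside 82.9% of all genes). 1 call in each direction is 12.5% of that list, below the 15.7% and 16.5% of all genes, and both genes were low, with at most 3 CPM in the mean of either arm.

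Genes of the phagocytic cup and the NADPH oxidase, the machinery that Fc receptors engage, numbered 15, of which 11 rose (73.3%, beside 15.7% of all genes) and 1 fell, against 0 higher and 8 lower scaled to the macrophage markers (53.3% lower, beside 82.9%). Myo1f, a leukocyte myosin, averaged 275 ± 40.1 CPM with anti-LIF and 111 ± 22.2 CPM with IgG (log2 fold change 1.31; edgeR adjusted p = 0.00295). The GTPase Rac2 (1.14), the actin regulator Was (0.75) and the exchange factor Dock2 (1.25) came next. Wasl, the broadly expressed relative of Was, fell (-0.71, chosen after its values were seen). Of 5 genes for the FcRn partner and antibody transport, B2m rose and Myo5b, a motor of epithelial recycling endosomes, fell (-0.83). Scaled to the macrophage markers, 0 were higher and 3 lower (60.0% lower, beside 82.9% of all genes). 1 call in each direction is 20.0% of so short a list, near the 15.7% and 16.5% of all genes.

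**Figure D5:**
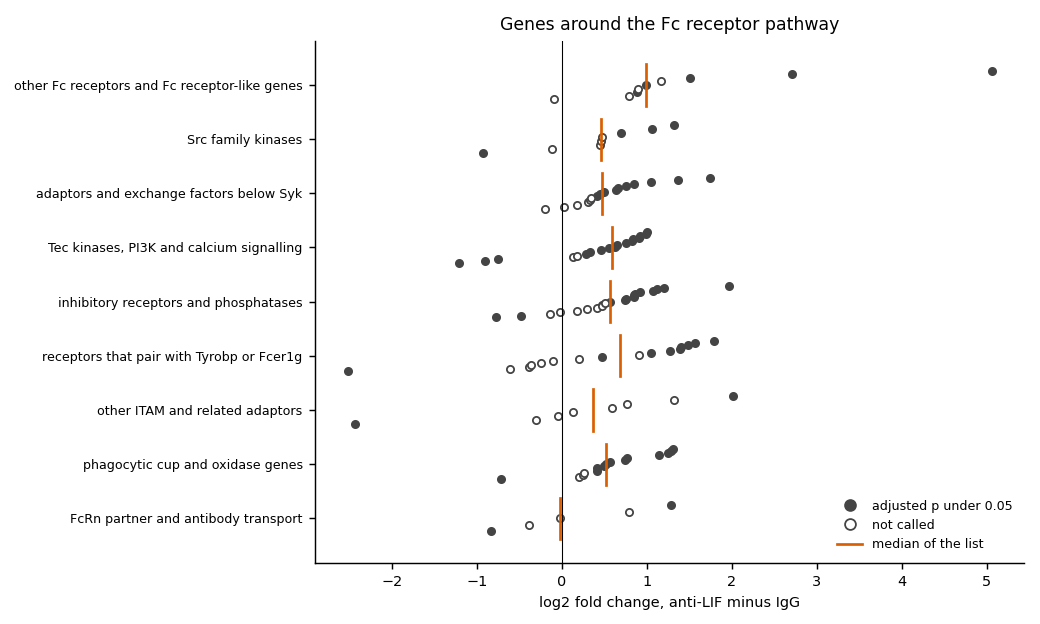
Log2 fold change (anti-LIF minus IgG, TMM scaling) of each tested gene in the 9 lists, with filled circles for an adjusted p under 0.05 and a bar at the list's median. Medians run from -0.02 for FcRn partner and antibody transport to 1.00 for the other Fc receptors; in all, 64 genes (55.7%) are called higher and 10 lower, but 4 higher and 58 (50.4%) lower when scaled to the macrophage markers, where 82.9% of all genes are lower.

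After the mean of each arm was subtracted from log2 CPM, the gene most like Fcer1g over the 8 libraries, among 10180 genes, was Blvra, a biliverdin reductase (Pearson r = 0.986). Ptpn18 (0.985), Ddrgk1 (0.980), Cryl1 (0.980) and Laptm5, a lysosomal protein of leukocytes (0.978), followed. Among the 9 genes themselves, Tyrobp had an r of 0.963 with Fcer1g and ranked 25th, and Fcgr2b had 0.933 and ranked 81st. Fcgr3 had 0.836, Fcgrt 0.739, Fcgr1 0.727 and Syk 0.722, while Fcgr4 had 0.322 and Plcg2 0.138. All these values share libraries and depth, and anti-LIF mouse 1 weighs in each of them, so they are a description only.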

How the data were processed

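RNA-seq of 8 libraries was analysed, 4 per arm, grouped by their labels. Per the submitters' processing notes, reads were checked with FastQC 0.11.2 and aligned to mm10 with STAR 2.4.0k, and edgeR 3.6.8 is named for the authors' own comparison, which was not used. Per the file headers, HOMER counted reads in exons, 1 transcript per gene; the sources used here give no strand setting, annotation version or read filter. In the table of counts, as deposited, values are whole reads, not normalized. The deposited FPKM table holds FPKM scaled by transcript length and header total, and its 168000 values for the 21000 transcripts common to both files matched the counts within 0.002.

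Counts were fitted in R 4.3.3 with edgeR 4.0.16 (filterByExpr, TMM scaling, quasi-likelihood test on all 8 libraries, Benjamini-Hochberg adjustment over 14711 genes, threshold 0.05), after the code was tested on simulated data. CPM use TMM library sizes. Ratios used counts over transcript length, with exact two-sided permutation tests over the 70 label assignments. The scaling to markers replaced library sizes by the summed counts of the 16 macrophage and monocyte or the 12 epithelial markers. Precision rests on 15135457 to 18972281 gene counts per library; reads carry no molecular identifiers. Alternatives were DESeq2 1.42.0, limma 3.58.1, other size factors, other filters, FPKM on a log2 scale with pseudocounts of 1 and 0.1, and leaving out each mouse; the closing section gives their effect.

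The 9 genes and all lists were chosen with earlier results of these data known. Named are the 9 genes, Epcam, up to 4 called genes of lowest p per pathway list, all tested further Fc receptors, and the 5 genes most like Fcer1g among those with a mean of at least 10 CPM; any other is said to be chosen after its values were seen. Each library is 1 mouse, and mouse numbers differ between the arms, so nothing pairs them. Some alleles of the mice and 1 gene that the rule would name are not reported here.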

Additional observations from a re-analysis of the deposited data

Results flagged for a closer look

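In the groups of 4 libraries, 60 in all, the highest or lowest value was tested for its distance from the others against Dixon's 95% limit for 4 values. Chance flags about 1 in 20 groups, which is 3 of 60, and 6 were flagged. All 6 concern mouse 1 of the anti-LIF arm. It was the highest anti-LIF library for Fcgr2b (2923 CPM; the other 3 ran from 1512 to 1692), for Fcgr3 (1468 CPM; others 795 to 873), for Fcer1g (577 CPM; others 404 to 422) and for Tyrobp (874 CPM; others 590 to 622). It was also the highest for the macrophage and monocyte marker sum (51988 CPM; others 26032 to 29556). Its ratio of Plcg2 to Syk was the lowest of the arm (0.468; others 0.610 to 0.634). These values come from 1 library and are not independent of each other.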

How the results depend on the processing

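The 8 calls among the 9 genes held, in direction and threshold, with DESeq2, limma-voom, limma-trend on FPKM with either pseudocount, DESeq2 size factors, library size alone and both other filters on low counts. Scaled to macrophage and monocyte markers, and in brackets without their 4 most abundant members (chosen after seeing the data), log2 fold changes were 0.022 (0.25) for Fcgr1, 0.012 (0.26) for Fcgr2b, -0.50 (-0.26) for Fcgr3, -0.84 (-0.62) for Fcgr4, -0.39 (-0.15) for Fcer1g, -0.54 (-0.30) for Tyrobp, -0.45 (-0.21) for Syk and -0.47 (-0.24) for Plcg2; 1 (1) of the 9 was called higher and 3 (0) lower, and 159 (241) of all genes higher and 12197 (11204) lower. The macrophage marker sum averaged 2.40 times as much with anti-LIF as with IgG. Scaling to it therefore moved the log2 fold changes of all genes down, the markers included. Scaled to epithelial markers all 9 were called higher, Fcgr4 included (1.41), with 11422 genes higher and 153 lower. Over all genes, 1430 were called higher with library size alone and 1535 with FPKM and a pseudocount of 0.1; the cause was not tested.

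Leaving out 1 mouse at a time gave 7 to 9 of the 9 genes called higher, 1457 to 2195 genes higher and 1502 to 2146 lower, the lowest counts without IgG mouse 2. Fcgr3 ranged from 0.50 to 0.84 and Fcgr4 from 0.20 to 0.64. The log2 ratio of Fcgr1 to Fcgr2b, -0.0021, was 0.0016 from deposited FPKM and ranged from -0.085 to 0.066 without 1 mouse, and that of Plcg2 to Syk ranged from -0.085 to 0.061. Marker sums with no difference also changed sign: mast cells -0.10 with summed FPKM, -0.066 with library size alone and -0.13 to 0.40 without 1 mouse, neutrophils -0.079 with summed FPKM, B and plasma cells -0.86 to 0.53 and endothelial cells -0.33 to 0.061 without 1 mouse. No paired analysis was possible because the arms share no mouse numbers.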
